A study of Homo sapiens with 12 samples.

Results

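The 9 genes described here encode bHLH-PAS transcription factors: ARNT, ARNT2, HIF1A, EPAS1, HIF3A, AHR, BMAL1, CLOCK and NPAS2. They were chosen by name, with no measured value in the rule, though with earlier results of these data known. They were found by pairing the Ensembl gene IDs of the count files with gene symbols. All 9 were present among 57820 gene IDs. The cells were AsPC-1, an established human pancreatic adenocarcinoma line grown from ascites. Either an siRNA directed at ARNT (siARNT) or a scrambled one (siControl) was given with the same lipid reagent, so the controls carry an siRNA too. Wells were divided on the next day and kept at 21% O2 (normoxia) or at 1% O2 for 24 h (hypoxia), and RNA was taken 48 h after transfection. That gives 4 groups of 3 libraries, lettered A, B and C, each named by its oxygen level and siRNA. AsPC-1 is a single line, and the labels do not say that the letters mark separate experiments, so p-values measure the spread between these samples, which may be technical.

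bHLH-PAS factors bind DNA as pairs. A sensor subunit, which responds to oxygen, to small ligands or to the time of day, joins a general partner. ARNT (also HIF-1 beta) is the general partner of the oxygen-labile HIF alpha subunits and of the aryl hydrocarbon receptor AHR, and ARNT2 is its close relative. HIF1A, EPAS1 (HIF-2 alpha) and HIF3A encode HIF alpha subunits, which are controlled mainly through breakdown of the protein at normal oxygen. BMAL1 is the general partner of the circadian clock and pairs with CLOCK or with NPAS2, which stands in for CLOCK in some tissues. HIF pairs read DNA with a core that is written here only in its common form ACGTG. The AHR pair reads DNA with the core GCGTG. The clock pair reads an E-box, which in full is CACGTG.

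Library totals ran from 38.53 to 84.34 M counted reads. All 8 ductal epithelial markers were found in every library, with a summed level of 5910 to 10000 counts per M counted reads (CPM). Of these 8, 5 rose and 1 fell with siARNT in normoxia (median log2 change 0.50), where the mean sum was 8100 CPM against 6570 in normoxia siControl, and 2 fell with siARNT in hypoxia (6530 against 6650 CPM). The mucin gene MUC1 rose by 1.35 with hypoxia in siControl (0.96, edgeR adjusted p = 0.0702, with a correction for GC content) and fell by 1.25 with siARNT in hypoxia on the log2 scale. Of the 5 rises in normoxia, those of EPCAM, KRT18, KRT8 and KRT7 were lost under 13, 8, 5 and 3 of 19 alternative fits. Without normoxia siARNT B those of KRT7, KRT8 and KRT18 did not pass (edgeR adjusted p = 0.0765, 0.0756 and 0.106). Over all tested genes 20.2% were called with siARNT in normoxia and 29.1% in hypoxia. The part of these markers in the results below was not tested. The summed markers of acinar, endocrine, leukocyte, endothelial and fibroblast cells stayed at or under 1.42 CPM in every library, and all 3 acinar genes stayed at 3 counts or fewer. Normoxia siARNT B stood apart from its group (chi-square per degree of freedom 91.1 and 73.3 against A and C, and 4.34 between A and C), and hypoxia siARNT C differed from A of its group by 61.3. These libraries also had the steepest slopes of expression on gene GC content, with 0.423 and 0.242 log2 units per 10% GC, against a range of -0.209 to 0.122 in the other 10. Calls of the 9 genes that were lost or gained without either library are stated beside the result.

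**Figure D1:**
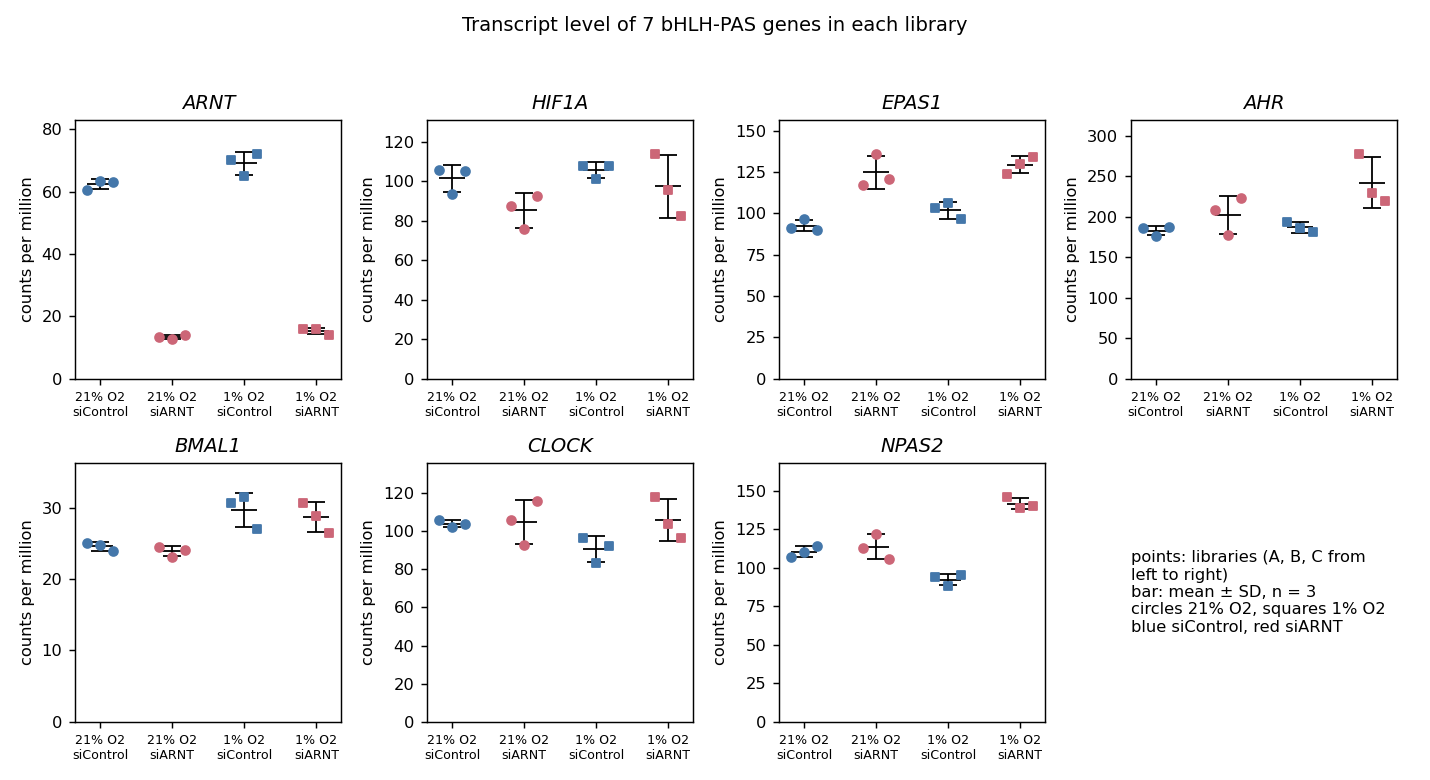
Levels of the 7 expressed bHLH-PAS genes in each library, in CPM scaled for library composition (y axis, from 0), with 1 panel for each gene and 1 column for each group. Points are libraries and bars are mean ± SD (n = 3). ARNT lies at 12.8 to 16 CPM in the 6 siARNT libraries and at 60.7 to 72.2 CPM in the 6 siControl libraries, and NPAS2 is lowest in hypoxia siControl and highest in hypoxia siARNT.

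Of the 9 genes, 7 were expressed and 2 were at the limit of detection. On a per-length scale (CPM per kilobase of exon, RPKM) in normoxia siControl, AHR was the most abundant at 22.7 ± 0.763 (SD, n = 3). HIF1A followed at 19.7 ± 1.31, EPAS1 at 12.7 ± 0.495, ARNT at 9.58 ± 0.235, CLOCK at 8.85 ± 0.188, NPAS2 at 8.83 ± 0.313 and BMAL1 at 3.65 ± 0.0916. CLOCK and NPAS2 overlapped in this order, and every other neighbouring pair was separated in all 3 libraries. With the length of each gene's longest transcript in place of its exon union, NPAS2 (13.8) stood above ARNT (12.8) and CLOCK (10.1). On that length AHR (25.3 to 26.9) and HIF1A (23.7 to 26.7) overlapped. Among the 7 expressed genes, ARNT was less abundant as a transcript than AHR, HIF1A and EPAS1, and BMAL1 less than CLOCK and NPAS2. ARNT2 had 0 to 4 counts and HIF3A 0 to 4 counts per library. Both were left out of the tests by the filter on low counts, and differences for them were not detectable at this depth, where 3 counts correspond to 0.036 to 0.078 CPM.

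Changes were called at a Benjamini-Hochberg adjusted p under 0.05 over all tested genes (edgeR). With hypoxia in siControl 2 of 7 were called (BMAL1 and NPAS2), against 25.3% of all 16999 tested genes. With hypoxia in siARNT 1 of 7 was called (NPAS2), against 4.09%. With siARNT in normoxia 2 of 7 were called (ARNT and EPAS1), against 20.2%, and with siARNT in hypoxia 4 of 7 (ARNT, EPAS1, AHR and NPAS2), against 29.1%. The difference between the oxygen changes was called for 1 of 7 (NPAS2), against 4.69%. Over so few genes these shares are no result about the family as a whole, and the calls below are about single genes. Groups of 3 libraries that do not overlap were common too, in 46.8, 22.2, 46.5 and 40.3% of tested genes in the 4 comparisons.

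**Figure D2:**
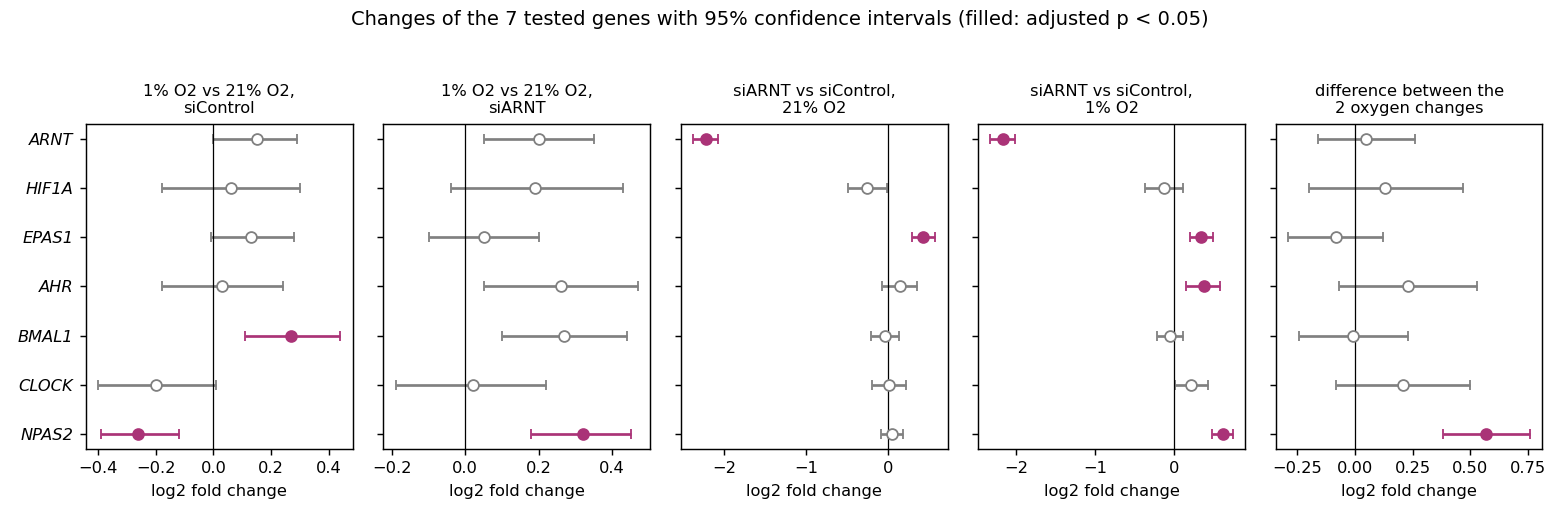
Log2 fold changes (x axis) of the 7 tested bHLH-PAS genes in the 4 comparisons and in the difference between the 2 oxygen changes (panels, each with its own x range). Points are estimates from edgeR, bars are 95% confidence intervals and filled points have an adjusted p under 0.05. Of the 7, NPAS2 has filled points on opposite sides of 0 for the 2 oxygen comparisons (-0.26 and 0.32).

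ARNT, the gene targeted by the siRNA, checked the labels. It measured 60.7, 63.6 and 63 CPM in normoxia siControl A, B and C and 13.3, 12.8 and 14 CPM in normoxia siARNT. Under hypoxia it measured 70.3, 64.9 and 72.2 CPM with siControl and 16, 15.8 and 14.1 CPM with siARNT. Every siARNT library lay below every siControl library, at both oxygen levels. The log2 fold change was -2.22 (SE 0.0699, adjusted p = 8.99e-09) in normoxia and -2.17 (SE 0.0701, adjusted p = 2.65e-09) in hypoxia. The remaining transcript was 21.4% of control (95% confidence interval 19.2 to 23.8) and 22.2% (19.9 to 24.7).

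Oxygen itself left ARNT within the threshold. The log2 change with hypoxia was 0.15 (SE 0.0661, adjusted p = 0.131) in siControl and 0.20 (SE 0.0689, adjusted p = 0.129) in siARNT, and the hypoxia libraries lay above the normoxia libraries in both. With a correction for GC content both changes passed, at 0.24 (adjusted p = 0.000285) and 0.21 (adjusted p = 0.00665). The difference between the 2 oxygen changes was 0.05 (adjusted p = 0.782).

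The ratio of ARNT to its partners fell with the knockdown, mostly through the fall of ARNT itself (log2 -2.22 in normoxia and -2.17 in hypoxia). It is therefore no separate evidence of the knockdown. The ratio of the ARNT level to the summed per-length levels of HIF1A, EPAS1, HIF3A and AHR was 0.166, 0.183 and 0.173 in normoxia siControl and 0.0347, 0.0356 and 0.0346 in normoxia siARNT. Under hypoxia the ratio was 0.183, 0.174 and 0.196 with siControl and 0.0334, 0.0374 and 0.0352 with siARNT. The groups did not overlap between the siRNAs, and the log2 change was -2.32 in normoxia and -2.38 in hypoxia (exact two-sided permutation test, p = 0.1 for each, the smallest that 3 against 3 allows). With oxygen the ratio changed by 0.08 in siControl (exact permutation p = 0.3) and by 0.01 in siARNT (exact permutation p = 0.8) on the log2 scale, with overlapping groups. These are ratios of transcripts, and protein was not analysed here.

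**Figure D3:**
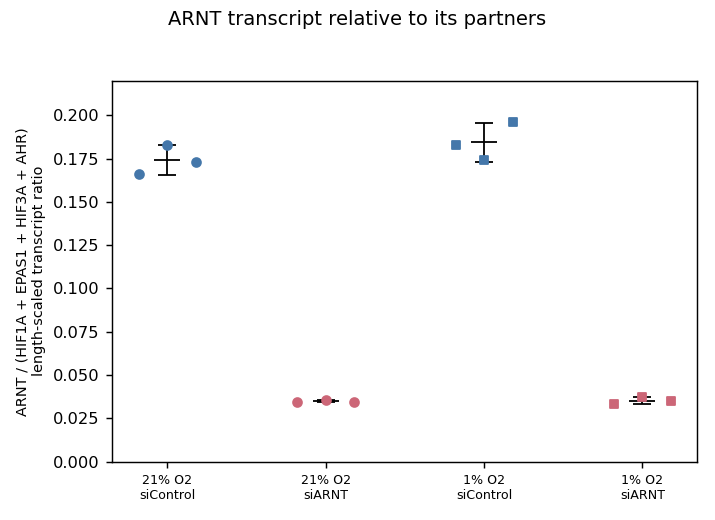
Ratio of the ARNT transcript level to the summed levels of HIF1A, EPAS1, HIF3A and AHR, per length (y axis, no unit, from 0), in each library by group. Points are libraries and bars are mean ± SD (n = 3); siControl libraries lie at 0.166 to 0.196 and siARNT libraries at 0.0334 to 0.0374.

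The remaining ARNT transcript was also described by its splice junctions. The event files hold 7 events of ARNT, of which 3 had at least 10 reads in every library. The alternative 45-base exon that distinguishes 2 ARNT isoforms (chromosome 1, 150814900 to 150814944, minus strand, in the files' own coordinates, whose build is not given in the sources used here) lies just before the part that codes for the bHLH region. It is shown here because it changes the protein next to the DNA-binding part. The first line gives this exon in capitals between 20 bases of each neighbour, and the second the junction made when it is skipped. Both are from GENCODE 29 transcripts with the same exon and intron lengths, where the exon is coding and a multiple of 3 bases long.
ARNT 45-base exon included: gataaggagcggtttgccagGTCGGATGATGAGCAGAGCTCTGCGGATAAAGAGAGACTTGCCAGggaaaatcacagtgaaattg
ARNT 45-base exon skipped: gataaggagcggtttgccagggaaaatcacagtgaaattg

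The files give the share of junction reads that include such an exon (percent spliced in, PSI). PSI of the 45-base exon was 92, 75 and 88% in normoxia siControl, 78, 86 and 84% in normoxia siARNT, 89, 82 and 87% in hypoxia siControl, and 86, 100 and 90% in hypoxia siARNT. Most ARNT junction reads included the exon in all 12 libraries, and the 4 groups overlapped. The event with the highest mean read count was a 152-base coding exon (chromosome 1, 150795670 to 150795821), with PSI of 92 to 100% over the 12 libraries. Its log2 ratio of inclusion to skipping changed by 0.24 (SE 0.962, limma, adjusted p = 1) with siARNT in normoxia and by -0.61 (SE 0.962, adjusted p = 0.898) in hypoxia. With hypoxia it changed by 0.99 (adjusted p = 0.969) in siControl and by 0.14 (adjusted p = 0.993) in siARNT. The remaining tested event was a 111-base coding exon. Over summed reads its inclusion was 85.6% with siControl and 95.3% with siARNT in normoxia, and 87.6 and 95.6% in hypoxia. Its log2 ratio changed by 2.18 and 1.6 with siARNT (limma, adjusted p = 0.75 and 0.67), resting on 4 and 3 skipping reads in the siARNT groups.

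Another ARNT event lies in the exon that codes for most of the bHLH region. An alternative donor site shortens this exon from 214 to 73 bases (chromosome 1, 150811917 to 150812130, minus strand, same coordinates), and the 141 bases removed are in capitals in the next line, taken from the matching GENCODE 29 exon. They begin with GT, the letters that open almost all introns, and keep the reading frame by length.
ARNT exon with the alternative donor: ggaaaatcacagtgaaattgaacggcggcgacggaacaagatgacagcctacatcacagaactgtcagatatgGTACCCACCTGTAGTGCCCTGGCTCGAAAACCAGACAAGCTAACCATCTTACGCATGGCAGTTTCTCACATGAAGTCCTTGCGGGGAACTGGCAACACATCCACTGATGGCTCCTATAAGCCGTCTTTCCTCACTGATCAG

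Reads of the short form numbered 0 of 125, 0 of 73 and 0 of 83 in normoxia siControl, and 0 of 109, 4 of 78 and 0 of 66 in hypoxia siControl. With siARNT they numbered 7 of 31, 1 of 16 and 2 of 12 in normoxia, and 7 of 21, 2 of 16 and 0 of 7 in hypoxia. Summed over both oxygen levels, the short form was 0.749% of 534 reads in siControl (exact Clopper-Pearson 95% interval 0.204 to 1.91) and 18.4% of 103 reads in siARNT (11.5 to 27.3). It was present in 5 of 6 siARNT libraries and in 1 of 6 siControl libraries. The event had too few reads in 1 or more libraries to be tested and was singled out after its values were seen. The absolute number of short-form reads (4 and 19) rests on few reads, and these intervals cover counting error only.

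**Figure D4:**
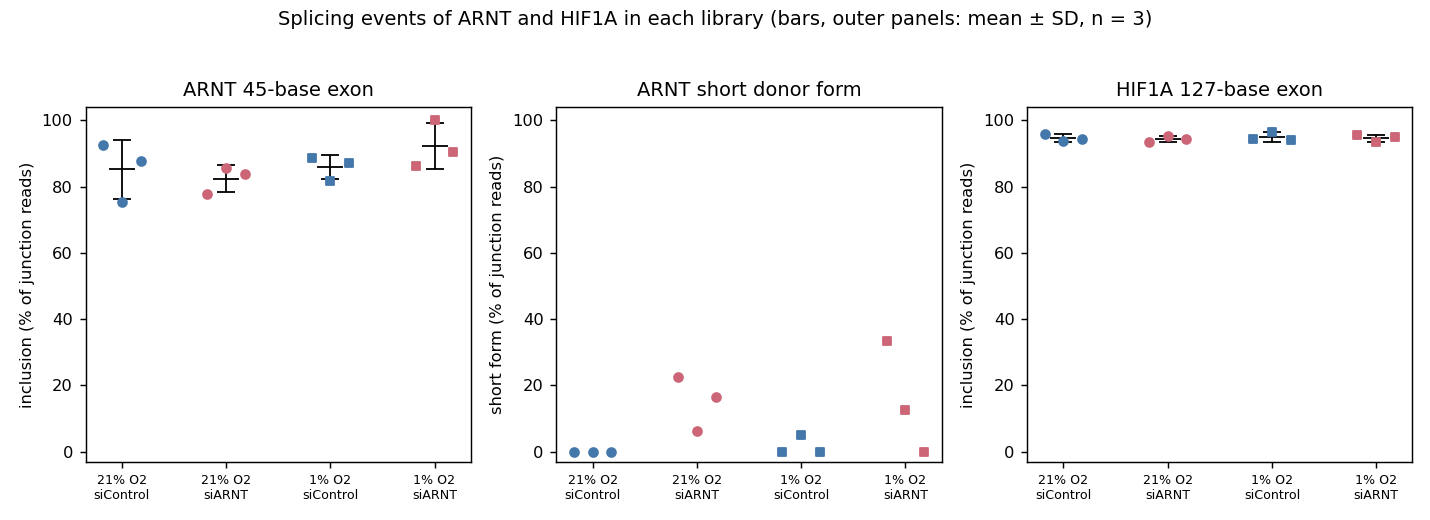
Share of junction reads (y axis, %) that include the ARNT 45-base exon (left), that use the short ARNT donor (middle) and that include the HIF1A 127-base exon (right), in each library by group. Points are libraries, and bars in the outer panels are mean ± SD (n = 3); the HIF1A exon stays at 93 to 97% in all 12 libraries, and the short ARNT donor is at 0% in 5 of 6 siControl libraries.

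Among the HIF alpha genes, EPAS1 rose when ARNT was knocked down and HIF1A passed the test in no comparison without a GC correction. EPAS1 measured 91.1, 96.6 and 89.9 CPM in normoxia siControl and 117, 136 and 121 CPM in normoxia siARNT. In hypoxia it measured 103, 106 and 96.3 CPM with siControl and 124, 130 and 134 CPM with siARNT. The siARNT libraries lay above the siControl libraries at both oxygen levels. The log2 fold change was 0.43 (SE 0.0671, adjusted p = 0.00122) in normoxia and 0.35 (SE 0.0671, adjusted p = 0.00212) in hypoxia. Oxygen changed EPAS1 by 0.13 (adjusted p = 0.176) in siControl and 0.05 (adjusted p = 0.688) in siARNT, and the difference between the 2 oxygen changes was -0.08 (adjusted p = 0.629). With the GC correction both oxygen changes passed, at 0.16 (adjusted p = 0.00134) and 0.13 (adjusted p = 0.0132).

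HIF1A measured 106, 93.8 and 105 CPM in normoxia siControl and 87.7, 75.6 and 92.4 CPM in normoxia siARNT. In hypoxia it measured 108, 101 and 108 CPM with siControl and 114, 95.8 and 82.5 CPM with siARNT. The widest spread was in hypoxia siARNT, which overlapped both siControl groups. The log2 change with siARNT was -0.25 (95% interval -0.49 to -0.01, adjusted p = 0.111) in normoxia and -0.12 (-0.36 to 0.12, adjusted p = 0.456) in hypoxia. With oxygen HIF1A changed by 0.06 (-0.18 to 0.30, adjusted p = 0.735) in siControl and by 0.19 (-0.04 to 0.43, adjusted p = 0.341) in siARNT. With the GC correction both oxygen changes passed, at 0.13 (adjusted p = 0.0289) and 0.18 (adjusted p = 0.0107). In bulk samples, less RNA per cell and fewer cells with the RNA cannot be told apart. HIF3A, at 0 to 4 counts, gave no comparison. Of the antisense genes that overlap these loci, HIF1A-AS1 and HIF1A-AS3 had 0 to 3 and 0 to 13 counts per library, and NPAS2-AS1 had 0 to 3.

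The HIF1A event with the highest mean read count was a 127-base exon (chromosome 14, 62212409 to 62212535, plus strand, same coordinates) in the part that codes for the C-terminal region. It is shown because its length is not a multiple of 3, so that skipping it shifts the reading frame. Capitals mark the exon, and the second line is the junction without it, both from GENCODE 29.
HIF1A 127-base exon included: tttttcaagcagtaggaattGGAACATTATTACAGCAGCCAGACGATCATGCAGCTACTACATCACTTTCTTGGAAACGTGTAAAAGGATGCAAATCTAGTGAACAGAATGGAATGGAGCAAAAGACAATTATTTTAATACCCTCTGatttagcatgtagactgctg
HIF1A 127-base exon skipped: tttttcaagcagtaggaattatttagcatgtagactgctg

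PSI of this exon was 96, 94 and 94% in normoxia siControl and 94, 95 and 94% in normoxia siARNT. In hypoxia it was 94, 97 and 94% with siControl and 95, 93 and 95% with siARNT. A minor form without the exon was thus read in every library at 3 to 7% of 179 or more reads, and no group stood apart. The log2 ratio of inclusion to skipping changed by 0.09 (SE 0.326, limma, adjusted p = 1) with hypoxia in siControl and by -0.07 (SE 0.326, adjusted p = 1) with siARNT in normoxia. A 123-base HIF1A exon (62207223 to 62207345) was at 97 to 100% in all 12 libraries. In normoxia its PSI was 97, 98 and 97% with siARNT and 100, 98 and 100% with siControl, and the test did not pass (adjusted p = 0.673).

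Genes that turn over the HIF alpha protein or bind it were followed as a list of 12, all tested. With hypoxia in siControl 5 rose and 1 fell, with a list median of 0.22 against 0.02 over all genes tested, of which 25.3% were called. EGLN3 and EGLN1, prolyl hydroxylases that mark HIF alpha for breakdown, rose by 3.29 (adjusted p = 1.62e-09) and 1.09 (adjusted p = 6.42e-06), and CITED2, which competes with HIF for its coactivators, by 0.49 (adjusted p = 0.0006). The coactivator genes CREBBP (0.30, adjusted p = 0.00382) and EP300 (0.20, adjusted p = 0.0125) rose less. CUL2, a scaffold of the ubiquitin ligase that recognises HIF alpha, fell by 0.39 (adjusted p = 0.0126). The calls of EP300 and CUL2 were lost under 2 and 3 of 20 alternatives, both of them without normoxia siControl A (adjusted p = 0.0528 and 0.053), and that of CUL2 also without normoxia siControl C or hypoxia siControl B (adjusted p up to 0.0616). With hypoxia in siARNT, where 4.09% of all tested genes were called, only EGLN3 of the 12 passed (0.71, adjusted p = 0.0018, and 0.071 with only the 6 siARNT libraries). The oxygen changes of EGLN3, EGLN1 and CITED2 differed between the siRNAs, by -2.57, -0.77 and -0.66 (adjusted p = 8.09e-07, 0.0054 and 0.0051). VHL and HIF1AN did not pass in any comparison.

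The 11 tested HIF target genes, a list chosen with results of these data known, gave the scale against which the members moved. All 11 rose with hypoxia in siControl (median 1.94) and 5 rose in siARNT (median 0.40). With only the siARNT libraries EGLN3, NDRG1, LDHA and KDM3A did not pass (adjusted p = 0.071, 0.067, 0.161 and 0.0589). The siARNT rise of LDHA was lost under 4 of 20 alternatives, and that of ANKRD37 kept its call under all 20 (adjusted p up to 0.0247). The glucose transporter gene SLC2A1 rose by 1.94 (adjusted p = 1.35e-05) in siControl and changed by 0.16 (adjusted p = 0.588) in siARNT, whereas ANKRD37 rose by 3.00 and by 2.50 (adjusted p = 4.4e-07 and 0.00011). As fitted, none of the 7 tested bHLH-PAS genes moved with oxygen by more than 0.32 on the log2 scale in either direction. Under alternatives BMAL1 reached 0.38 in siControl, and NPAS2 and AHR reached 0.37 and 0.33 in siARNT. BNIP3 was not tested, with at most a few counts.

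AHR rose with siARNT in hypoxia, and its targets fell. AHR measured 186, 176 and 187 CPM in normoxia siControl and 208, 177 and 223 CPM in normoxia siARNT. In hypoxia it measured 194, 186 and 181 CPM with siControl and 278, 230 and 219 CPM with siARNT. Only in hypoxia were the siARNT libraries all above the siControl libraries. The log2 change was 0.38 (SE 0.0975, adjusted p = 0.0126) there and 0.15 (SE 0.0973, adjusted p = 0.285) in normoxia. The difference between the siRNA changes at the 2 oxygen levels was 0.23 and did not pass (adjusted p = 0.363), so the 2 oxygen levels are not shown to differ. Without hypoxia siARNT A, the highest library, the change in hypoxia was 0.27 (adjusted p = 0.055). With the GC correction it was 0.42 in hypoxia and 0.29 (adjusted p = 9.96e-05) in normoxia.

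All 6 tested AHR targets fell with siARNT in hypoxia and 5 of 6 fell in normoxia, with list medians of -2.82 and -1.85. CYP1A1, the classic AHR-induced monooxygenase gene, measured 5.02, 5.32 and 4.92 CPM in normoxia siControl and 0.187, 0.172 and 0.0981 CPM in normoxia siARNT. In hypoxia it measured 8.22, 9.62 and 8.24 CPM with siControl and 0.0189, 0.0234 and 0.0487 CPM, or 1, 1 and 2 counts, with siARNT. The normoxia change was -4.99 (adjusted p = 2e-08). CYP1B1 fell by 3.61 and 5.19 on the log2 scale, and TIPARP, an ADP-ribosyltransferase that limits AHR signalling, by 1.99 and 2.84. With hypoxia alone 4 of the 6 rose in siControl (median 0.45) and 4 fell in siARNT (median -0.71), against 25.3 and 4.09% of all tested genes called. Of those 4 falls, that of TIPARP (-0.37, adjusted p = 0.0452) was lost under 13 of 20 alternatives, -0.29 (adjusted p = 0.0923) without hypoxia siARNT C among them. Those of CYP1A1, AHRR and CYP1B1 were lost under 4 of 19, 3 of 20 and 1 of 20, CYP1A1 without normoxia siARNT A or hypoxia siARNT A or B (adjusted p = 0.0731 to 0.103). CYP1A2 was not tested. Of the genes of the chaperone complex that holds AHR in the cytoplasm, HSP90AA1 fell with hypoxia in siControl (-0.49, adjusted p = 0.00222) and rose with siARNT in hypoxia (0.29, adjusted p = 0.031), PTGES3 fell with siARNT in normoxia (-0.32, adjusted p = 0.0329), and HSP90AB1 did not pass in any comparison. The siARNT calls of HSP90AA1 and PTGES3 were each lost under 6 of 19 alternatives. For HSP90AA1 these left out siControl A of either oxygen level, normoxia siControl C, hypoxia siControl B or hypoxia siARNT A or B (adjusted p up to 0.136). For PTGES3 they were the fit to only the samples compared (adjusted p = 0.0528) and those without any 1 of the 3 normoxia siControl libraries, normoxia siARNT B (-0.25, adjusted p = 0.0979) or hypoxia siARNT B (adjusted p up to 0.121).

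AHRR, a bHLH-PAS gene outside the 9, encodes the AHR repressor, which competes with AHR for ARNT, and it belongs to the target list as well. It measured 48.5, 53.5 and 50.6 CPM in normoxia siControl and 14, 17.5 and 14.9 CPM in normoxia siARNT. In hypoxia it measured 77, 77.8 and 75.1 CPM with siControl and 11, 10.6 and 11.5 CPM with siARNT. Hypoxia thus raised AHRR in siControl (0.59, adjusted p = 0.000249) and lowered it in siARNT (-0.49, adjusted p = 0.0106), a difference of -1.08 (adjusted p = 0.000335). The fall in siARNT did not pass with only the 6 siARNT libraries (adjusted p = 0.16), with the transfected well as a block (adjusted p = 0.0542) or without hypoxia siARNT B (-0.46, adjusted p = 0.0632). Of the other 9 bHLH-PAS genes listed, SIM1, NPAS1, NPAS3 and NPAS4 were not tested. SIM2 fell with siARNT from a low level of 11 to 56 counts per library (-0.97 and -0.96, adjusted p = 0.0256 and 0.0178). The normoxia call was lost without normoxia siControl A or C or normoxia siARNT B or C (adjusted p = 0.0606 to 0.105), and the hypoxia call without hypoxia siControl A or hypoxia siARNT A or B (adjusted p = 0.0513 to 0.0782). The p160 coactivator gene NCOA3 fell with siARNT (-0.47 and -0.34, adjusted p = 0.00276 and 0.00903), NCOA2 rose with hypoxia in siControl (0.27, adjusted p = 0.00351) and NCOA1 rose with siARNT in hypoxia (0.31, adjusted p = 0.0271), a call lost under 4 of 19 alternatives, without hypoxia siControl B or hypoxia siARNT A or B among them (adjusted p up to 0.121).

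NPAS2 was the member whose response to oxygen differed between the siRNAs. It measured 107, 110 and 114 CPM in normoxia siControl and 93.7, 88 and 95.4 CPM in hypoxia siControl. With siARNT it measured 113, 122 and 106 CPM in normoxia and 146, 139 and 140 CPM in hypoxia. Every hypoxia library lay below every normoxia library with siControl, and above with siARNT. The log2 change with hypoxia was -0.26 (SE 0.0617, adjusted p = 0.00962) in siControl and 0.32 (SE 0.0616, adjusted p = 0.02) in siARNT. The difference between them was 0.57 (SE 0.0871, 95% interval 0.38 to 0.76, adjusted p = 0.00399).

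The effect of siARNT on NPAS2 differed between the oxygen levels by the same 0.57, which is the same contrast and no separate test. The change was 0.05 (SE 0.0615, adjusted p = 0.609) in normoxia, with overlapping groups, and 0.62 (SE 0.0618, adjusted p = 1.92e-05) in hypoxia. The difference passed under each of the 19 alternatives tried, with values from 0.52 to 0.64 and adjusted p up to 0.0229. The rise in siARNT alone was less firm: it did not pass with only the 6 siARNT libraries (adjusted p = 0.138), with the transfected well as a block (adjusted p = 0.0628) or without normoxia siARNT A or C or hypoxia siARNT A or B (adjusted p = 0.0634 to 0.0754). The fall in siControl did not pass without the low-count filter (adjusted p = 0.051) or without normoxia siControl C (adjusted p = 0.0592).

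BMAL1, the partner of NPAS2, rose with hypoxia in siControl. It measured 25, 24.8 and 23.9 CPM in normoxia siControl and 30.6, 31.5 and 27 CPM in hypoxia siControl, with no overlap. With siARNT it measured 24.5, 23.1 and 24 CPM in normoxia and 30.7, 28.9 and 26.5 CPM in hypoxia, again with no overlap. The log2 change was 0.27 (SE 0.0768, adjusted p = 0.0211) in siControl and 0.27 (SE 0.0769, adjusted p = 0.0728) in siARNT, and their difference was -0.01 (95% interval -0.24 to 0.23, adjusted p = 0.98). The siControl call was lost without the low-count filter (adjusted p = 0.0707) and without normoxia siControl B or C or hypoxia siControl A or B (adjusted p = 0.0563 to 0.0719). The siARNT change passed with DESeq2 (adjusted p = 0.043), with scaling by total counts (adjusted p = 0.0407), with the GC correction (adjusted p = 0.0179) and without hypoxia siControl C (adjusted p = 0.0459). BMAL1 differed little between the siRNAs, by -0.04 and -0.05.

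CLOCK did not pass in any of the 5 comparisons as fitted, and passed under some alternatives. It measured 106, 102 and 104 CPM in normoxia siControl, 106, 92.6 and 116 CPM in normoxia siARNT, 96.6, 83.2 and 92.5 CPM in hypoxia siControl, and 118, 104 and 96.2 CPM in hypoxia siARNT. The hypoxia siControl libraries were all below the normoxia siControl libraries (-0.20, 95% interval -0.40 to 0.01, adjusted p = 0.153), a change that passed with only the 6 siControl libraries (-0.21, adjusted p = 0.0242) and with the GC correction (-0.12, adjusted p = 0.0166). With siARNT in normoxia the change was 0.01 (adjusted p = 0.946), and 0.15 (adjusted p = 0.00572) with the GC correction. With siARNT in hypoxia the change was 0.22 (0.02 to 0.43, adjusted p = 0.0965), which passed without normoxia siARNT B (adjusted p = 0.0478) or hypoxia siARNT C (adjusted p = 0.0483), with scaling by total counts (adjusted p = 0.0151) and with the GC correction (0.28, adjusted p = 1.64e-05). The difference between the oxygen changes was 0.21 (-0.08 to 0.50, adjusted p = 0.375).

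BMAL2, the relative of BMAL1 among the other bHLH-PAS genes, measured 28.6, 26.2 and 27.6 CPM in normoxia siControl and 17.8, 15.7 and 17.1 CPM in hypoxia siControl. It fell by 0.70 (adjusted p = 0.000287) on the log2 scale there, in the opposite direction to BMAL1, and changed by -0.18 (adjusted p = 0.314) in siARNT. The difference of 0.52 (adjusted p = 0.0497) did not pass under 12 of 19 alternatives. Of 16 clock repressors and modulators 14 were tested, and 4 rose and 1 fell with hypoxia in siControl. None passed in siARNT, where 3 of the 14 had an unadjusted p under 0.05. Over all 16999 tested genes 25.3% were called in siControl and 4.09% in siARNT, and 3605 had an unadjusted p under 0.05 in siARNT. Over so few genes these counts are no result about the list. BHLHE40, a bHLH repressor of the clock, measured 53.1, 57.2 and 56.8 CPM in normoxia siControl and 111, 113 and 103 CPM in hypoxia siControl (0.97, adjusted p = 3.92e-06), against 57.9, 59.9 and 61.1 CPM in hypoxia siARNT. PER2, RORA and CIART also rose (0.53, 1.21 and 0.36) and CRY1 fell by 0.44 on the log2 scale in siControl. The oxygen changes of BHLHE40 and CIART differed between the siRNAs by -0.75 and -0.64 (adjusted p = 0.00191 and 0.0239). With siARNT in hypoxia 1 rose and 6 fell, and with siARNT in normoxia PER3 and NR1D2 fell (-0.36 and -0.38). Over all tested genes 29.1 and 20.2% were called in these 2 comparisons. The NR1D2 call was lost with only the samples compared (adjusted p = 0.0605) and without normoxia siControl A, B or C (adjusted p = 0.0563 to 0.0868). In siControl the calls of CIART and RORA with hypoxia were lost under 5 and 1 of 20 alternatives, both without normoxia siControl A (adjusted p = 0.0598 and 0.0508), and CIART also without normoxia siControl C or hypoxia siControl A. Of 5 clock output genes 3 rose (DBP, TEF and NFIL3) and 2 fell (HLF and WEE1) with hypoxia in siControl. Calls of DBP, TEF, HLF and WEE1 were lost under 6, 4, 4 and 2 of 20 alternatives (adjusted p up to 0.125), each of these without 1 of the 6 siControl libraries.

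**Figure D5:**
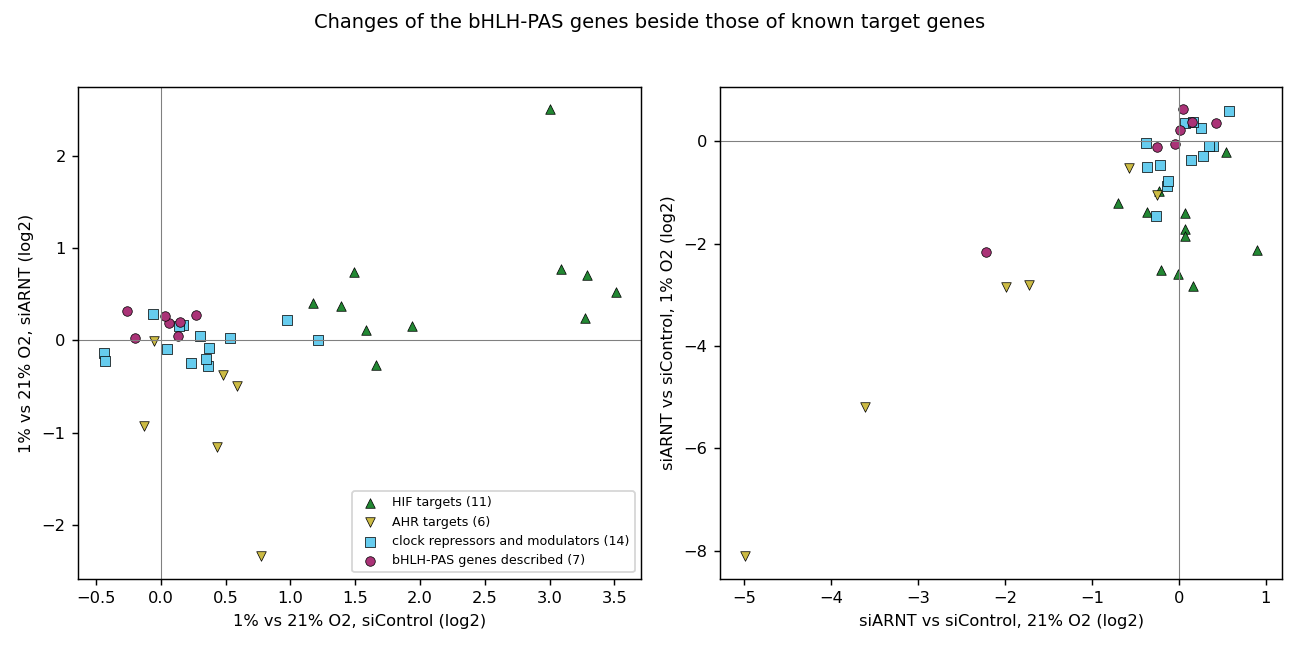
Log2 fold changes of single genes in 2 comparisons on the x and y axes: oxygen in siControl against oxygen in siARNT (left), and siARNT at 21% O2 against siARNT at 1% O2 (right). Symbols are the 7 tested bHLH-PAS genes and the listed HIF targets (11), AHR targets (6) and clock repressors and modulators (14); the HIF targets reach 3.51 on the left x axis, while each of the 7 tested members lies between -0.26 and 0.27 there.

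The members also differed in base composition, which moved with some of their values. HIF1A, AHR and CLOCK have exons of 36.4, 38.2 and 37.2% GC, and NPAS2 and EPAS1 of 48.8 and 52.6%. In normoxia siARNT, library B had the steepest GC slope, and there HIF1A (75.6 CPM), AHR (177 CPM) and CLOCK (92.6 CPM) were the lowest of their group while EPAS1 (136 CPM) and NPAS2 (122 CPM) were the highest. After correction for GC content 7 of 7 members were called with hypoxia in siControl (against 43.6% of genes), 6 of 7 in siARNT (22.1%), 4 of 7 with siARNT in normoxia (33.1%), 5 of 7 in hypoxia (46.8%) and 1 of 7 for the difference (19.2%). The called changes kept their direction, and the part of base composition in the uncorrected values was not tested further.

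Promoters are shown for NPAS2, EPAS1 and AHR, the 3 members that rose with siARNT (EPAS1 at both oxygen levels, NPAS2 and AHR called in hypoxia), so that letters read by bHLH-PAS pairs can be seen. Each runs from 250 bases before to 50 after the RefSeq start (GRCh38.p14), and capitals mark the E-box, the HIF core or the AHR core given above, on either strand. Every E-box holds the HIF core on both strands, so those matches overlap.
NPAS2 promoter, chr2:100819889-100820188, plus strand: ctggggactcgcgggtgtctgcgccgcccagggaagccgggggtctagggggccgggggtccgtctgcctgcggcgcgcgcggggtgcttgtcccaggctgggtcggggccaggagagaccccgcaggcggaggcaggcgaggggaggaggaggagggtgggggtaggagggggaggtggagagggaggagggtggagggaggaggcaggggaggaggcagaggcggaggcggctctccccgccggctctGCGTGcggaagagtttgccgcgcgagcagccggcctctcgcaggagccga
EPAS1 promoter, chr2:46297157-46297456, plus strand: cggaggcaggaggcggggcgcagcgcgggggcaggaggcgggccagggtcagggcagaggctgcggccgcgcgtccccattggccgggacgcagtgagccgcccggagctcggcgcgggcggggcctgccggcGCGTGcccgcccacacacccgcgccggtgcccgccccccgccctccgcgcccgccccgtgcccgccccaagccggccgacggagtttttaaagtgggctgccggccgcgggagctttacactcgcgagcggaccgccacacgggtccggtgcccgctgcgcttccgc
AHR promoter, chr7:17298402-17298701, plus strand: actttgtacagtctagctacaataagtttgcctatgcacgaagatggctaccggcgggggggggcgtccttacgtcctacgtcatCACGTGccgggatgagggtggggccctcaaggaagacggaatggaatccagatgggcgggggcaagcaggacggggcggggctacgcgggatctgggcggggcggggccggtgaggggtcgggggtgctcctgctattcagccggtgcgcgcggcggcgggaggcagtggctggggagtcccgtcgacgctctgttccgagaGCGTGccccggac

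NPAS2 and EPAS1 each held 1 match to the AHR core and none to the other 2 motifs as written here. AHR held 1 E-box and 1 AHR core. Among the members not shown, 1 window of HIF1A held 1 AHR core, and 1 window of CLOCK held 1 AHR core and 1 HIF core. Neither of these genes was called with siARNT as fitted. A window of HIF3A, which was not tested, held 3 AHR cores, and the windows of ARNT and BMAL1 held 0 matches. The HIF core was counted only as ACGTG, so these counts do not exclude other forms of it. Among 35116 RefSeq promoter windows of the same 300 bases, 7.26% held the E-box, 21.4% the HIF core and 36.5% the AHR core. The AHR core was common among all promoters, and a match is only a match of letters.

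Across all members the event files hold 54 events: 7 of ARNT, 7 of HIF1A, 1 of EPAS1, 3 of AHR, 8 of BMAL1, 9 of CLOCK and 19 of NPAS2, and none of ARNT2 or HIF3A. Enough reads were present for 46. None of the 46 was called by limma in the 5 comparisons, where 0.0349, 0.0414, 0.0196, 0.0349 and 0.0371% of 45856 tested events were called, in the order oxygen (siControl, then siARNT), siRNA (normoxia, then hypoxia) and difference. At an unadjusted p under 0.05 there were 7, 1, 6, 5 and 6 of the 46, against 5.81, 6.66, 6.59, 7.91 and 5.01% of all tested events. Events of 1 gene can share reads, so these counts are not of separate events. The 126-base BMAL1 exon and a multiple exon skip that holds it share a skipping junction (limma, unadjusted p = 0.00115 and 0.00437, hypoxia in siControl). A quasi-binomial model called none either, with 2, 0, 2, 2 and 2 of the 46 at an unadjusted p under 0.05, against 5.01, 4.33, 7.09, 5.53 and 3.6% of all tested events.

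Some events singled out after their values were seen show the size of what was not called. A 126-base BMAL1 exon (chromosome 11, 13371492 to 13371617) had PSI of 100% in all 3 normoxia siControl libraries and 92 to 100% in the other 9, resting on 0 to 3 skipping reads per library. A donor event of NPAS2 (alternative exon end at 101551350 or 101551593 on chromosome 2) had 51, 46 and 38 reads of one form in hypoxia siARNT and 58 in normoxia siControl B, and 0 in each of the other 8 libraries beside 43 to 92 reads of the other form. An acceptor event of AHR (start at 17382551 or 17382545 on chromosome 7) gave 15, 10 and 20 reads of the shorter form in normoxia siControl and 0 in all 3 hypoxia siControl libraries. In a fit to the 6 siControl libraries alone, added after seeing the data, this AHR event was the 1 member event called (-4.73, adjusted p = 0.0156), among 0.221% of 47106 events. The same form had 0 of 423 reads in normoxia siARNT A beside 17 and 16 reads in B and C. A count of 0 beside 20 or more reads in another library of the same group occurred in 8.48% of all tested events and in 13.0% of the 46. How the files come to hold such zeros was not tested.

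Genes with the pattern most like each member were ranked by Pearson's r of log2 CPM over the 12 libraries, among the 9855 tested genes whose mean reached 5 CPM. The points share libraries, depth and the 4 groups, and the siRNA sets most of the ARNT pattern. Among the nearest for ARNT were ENSG00000259758.1 (r = 0.998), FAM3C2P (0.996), TMTC2 (0.995) and ITGB6 (0.994). The 2 nearest genes were MERTK (0.979) and TCF20 (0.974) for NPAS2, DLG5 (0.983) and LGALS2 (0.982) for EPAS1, and EEA1 (0.981) and CDK17 (0.978) for AHR. For HIF1A they were MED14 (0.977) and TAOK1 (0.973), for BMAL1 MAP7 (0.97) and SCD (0.965), and for CLOCK MBNL3 (0.976) and MAN1A2 (0.953).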

How the data were processed

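Poly(A) RNA of 12 AsPC-1 libraries was sequenced from stranded libraries. The authors deposited raw counts of reads per Ensembl gene ID, in files that carry the counter's name HTSeq, whose settings, strand option included, are not given in the sources used here. Trimmomatic, STAR 2.4.2a and GRCh38.p10 are named, with no role, per the submitters' processing notes. Reads that named no gene, 22.71 to 25.2% per library, were left out. The deposited event files give junction read counts, the mean coverage of retained introns as a signal, and the inclusion share as a fraction, per the file headers. Only 0.467% of 24609 exon-skip exons lie at the same position in GENCODE 29 (GRCh38), so event coordinates are printed as given. Another deposited gene table was not used.

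Of 57820 IDs, 51996 were paired with a symbol (99.35% of counts). Genes were tested with edgeR 4.0.16 in R 4.3.3 (TMM scaling, filterByExpr, robust quasi-likelihood, 1 mean per group over 12 libraries, 16999 genes). Events were tested with limma 3.58.1 on log2 of inclusion over exclusion counts, each plus 0.5, with at least 10 reads in every library. Calls have a Benjamini-Hochberg adjusted p under 0.05. RPKM used the union of GENCODE 29 exons. DESeq2 1.42.0 was an alternative, and scripts were tested on simulated data. Every pair of libraries within a group differed by more than sampling error (chi-square over its degrees of freedom 4.34 to 91.1). The letters were not taken as pairs, since same-letter correlations of deviations from group means ran from -0.43 to 0.52.

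The 9 genes and the gene lists were chosen with earlier results of these data known. The genes named are the 9, listed genes called in at least 1 comparison, the nearest genes by correlation (5 for ARNT, 2 for the others), and for ARNT and HIF1A the event with the most reads; other events named were chosen after their values were seen. Some genes that this rule names are not reported here.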

Additional observations from a re-analysis of the deposited data

Results flagged for a closer look

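The change of NPAS2 with hypoxia in siARNT minus that in siControl was 0.57 on the log2 scale, and it is listed because this difference between the siRNAs itself passed the edgeR test (adjusted p = 0.00399). NPAS2 was lower in all 3 hypoxia libraries than in all 3 normoxia libraries with siControl and higher with siARNT.

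The same difference passed for 22 listed genes outside the 9, from lists chosen with earlier results of these data known, and for 4.69% of all tested genes. It passed for 10 of 11 tested HIF targets, 4 of 6 AHR targets, 3 of 12 genes that act on HIF alpha and 2 of 6 other bHLH-PAS genes. EGLN3 and AHRR were counted on both of their lists. It also passed for 1 of 4 AHR chaperone genes, 2 of 14 clock repressors and modulators and 2 of 8 ductal epithelial markers, MUC1 (-1.21) and CDH1 (-0.42). With the GC correction the difference for MUC1 was -0.40 (adjusted p = 0.661). Among bHLH-PAS genes it was -1.08 for AHRR and 0.52 for BMAL2. Among genes that act on HIF alpha it was -0.77 for EGLN1, -2.57 for EGLN3 and -0.66 for CITED2, and in the AHR chaperone complex it was 0.53 for HSP90AA1. For the clock genes BHLHE40 and CIART it was -0.75 and -0.64. HIF targets gave -3.02 for CA9, -2.32 for NDRG1, -0.77 for VEGFA, -1.78 for SLC2A1, -1.47 for PGK1, -1.02 for LDHA, -1.93 for ADM, -2.99 for PFKFB4 and -0.75 for KDM3A. AHR targets gave -3.11 for CYP1A1, -1.58 for CYP1B1 and -0.85 for TIPARP. CYP1A1 had 1 to 2 counts per library in hypoxia siARNT, so its fitted value depends on the prior count. The differences for BMAL2, VEGFA, HSP90AA1 and CIART were lost under 12, 11, 10 and 10 of 19 alternatives.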

How the results depend on the processing

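The event fit on 6 siControl libraries was chosen after seeing the data. Over the 7 tested genes and 5 comparisons, 609 of 679 alternative values kept direction and side of the threshold, 14 lost a call, 33 gained one and 23 changed sign, all of these from uncalled values near 0. The sign changes were BMAL1 at 0.08 with siARNT in normoxia under the GC correction (with or without the replicate block), at 0.03 with siARNT in hypoxia and 0.04 in the difference with total count scaling, and ARNT at -0.03 in the difference under the GC correction (with or without the block). Leaving out 1 library each gave ranges across 0 for CLOCK (hypoxia in siARNT -0.06 to 0.09, siARNT in normoxia -0.06 to 0.08), NPAS2 (siARNT in normoxia -0.02 to 0.09), BMAL1 (siARNT in hypoxia -0.12 to 0.01, difference -0.06 to 0.05) and the ratio of ARNT to its partners in siARNT (-0.03 to 0.05).

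Counts of called genes rose with the GC correction from 4299 to 7208 (hypoxia in siControl), 696 to 3657 (hypoxia in siARNT), 3431 to 5478 (siARNT in normoxia), 4948 to 7745 (siARNT in hypoxia) and 797 to 3172 (difference), and with the GC correction and replicate block to 7447, 3907, 5859, 7967 and 3348. With the replicate block alone the counts moved by less than 1.5 times and no call of a member changed (NPAS2 difference adjusted p = 0.0072 by edgeR). No letter pairing was used: between 1 and 4 of 6 libraries per comparison correlated best with their own letter, a hint from the data and not the design. Total count scaling gave 1495 for the difference, the well as a block 136 (hypoxia in siARNT) and 373 (difference), and the 6 siARNT libraries alone 22. Without 1 library each the counts ran from 2873 to 5242, 129 to 707, 1571 to 4148, 3537 to 5847 and 272 to 1188, in the order siControl and siARNT (oxygen), normoxia and hypoxia (siRNA) and difference. The lowest of these came without normoxia siControl C for siARNT in normoxia (1571), hypoxia in siControl (2873) and the difference (272), and without hypoxia siARNT B for hypoxia in siARNT (129). The cause of these shifts was not tested.

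Called events numbered 16, 19, 9, 16 and 17. The quasi-binomial model gave 8, 0, 30, 19 and 0, a pseudocount of 1 gave 11 for hypoxia in siARNT, the replicate block 9 there and 11 for the difference, and the 6 siControl libraries 104. Without 1 library each the counts ran from 14 to 35, 13 to 106, 10 to 35, 19 to 103 and 22 to 66, in the same order, with the 106, 103 and 66 reached without hypoxia siARNT C. Signs of uncalled exon changes turned for the 152-base ARNT exon at -0.17 (pseudocount of 1, siARNT in normoxia) and 0.01 (quasi-binomial, siARNT in hypoxia) and for the 127-base HIF1A exon at -0.05, 0.01 and 0.18 (quasi-binomial, hypoxia in siControl, siARNT in hypoxia, difference), and with 1 library left out the ranges were -0.42 to 1.13 (hypoxia in siARNT), -0.76 to 0.77 (siARNT in normoxia), -1.17 to 0.19 (siARNT in hypoxia) and -1.4 to 0.15 (difference) for ARNT, and -0.16 to 0.28, -0.09 to 0.19, -0.2 to 0.13, -0.27 to 0.13 and -0.25 to 0.2 in the order above for HIF1A.

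With the longest transcript as length, levels in normoxia siControl were 26.3 (AHR), 25.7 (HIF1A), 17.9 (EPAS1), 13.8 (NPAS2), 12.8 (ARNT), 10.1 (CLOCK) and 6.36 (BMAL1) RPKM. ARNT2 and HIF3A at 0 to 4 counts are limited by depth, as are ARNT junctions in siARNT libraries.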
